A study of Homo sapiens with 11 samples.

Results

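The ephrins and Eph receptors were followed through HCT116 cells, a human colorectal carcinoma line, that overexpress gelsolin, an actin-severing protein. The set holds 10 genes, taken by gene symbol from the platform annotation, with the brightest probe standing for a gene: EFNA1 and EFNA4 (A-class ligands), EFNB1 and EFNB2 (B-class ligands), EPHA2 and EPHA4 (A-class receptors) and EPHB2, EPHB3, EPHB4 and EPHB6 (B-class receptors). Of the 10, 9 have a probe in the annotation used here, and 8 were bright enough to test, out of 10267 genes tested and 18712 genes and unnamed probes in all. EPHB2 was not analysed here, because no probe is listed for it. RNA was measured on Illumina HumanRef-8 beadchips from 4 lines stably transfected with a pIRES2-EGFP plasmid that carries the cDNA of human cytoplasmic gelsolin (C1, C2, C3 and C8) and 2 lines with the empty pIRES2-EGFP plasmid (V4 and V5). Each line is a clone grown out of transfected HCT116 cells, so the differences between lines include differences between clones. Lines were harvested 2 times, with 1 array of V5 analysed, giving 8 gelsolin arrays and 3 vector arrays.

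Eph receptors are receptor tyrosine kinases whose ligands, the ephrins, stay on the surface of the neighbouring cell. A-class ephrins are held by a lipid anchor and B-class ephrins by a membrane-spanning stretch with a tail inside the cell, so that contact can signal into the receptor cell and into the ligand cell. Receptors mostly bind ligands of their own class, with EPHA4 also binding B-class ephrins, and in the intestinal crypt EPHB2 and EPHB3, which are targets of beta-catenin and TCF, sort cells against ephrin-B ligands.

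Values are normalized signals on a linear scale in arbitrary units: each array's intensities divided by its median and multiplied by the common median of 88.35. Array medians before scaling were 80.1 to 105 on gelsolin arrays and 75.7 to 88.7 on vector arrays. No background was subtracted here, and whether any was subtracted before deposit is not known. To the extent that background remains in the signals, fold changes of dim probes are understated. GSN, the gelsolin gene, averaged 225 ± 29.7 in the gelsolin lines and 141 ± 0.501 in the vector lines (SD, n = 4 and 2 lines), with no overlap between the arrays (log2 fold change 0.67, adjusted p = 0.00366 from limma). A second, dim GSN probe averaged 78.6 ± 5.50 in the gelsolin lines and 78.4 ± 3.29 in the vector lines. The mean of the 2 probes gave 0.33 on the log2 scale (adjusted p = 0.0374 from limma). Of 23 alternative settings, the GSN call was lost in 3. These were beadchip 1 alone (log2 fold change 0.61), V5 left out (0.66) and analysis of variance on line means (0.67, adjusted p = 0.0730 in that test). All 7 epithelial marker genes with a probe, among them EPCAM and KRT8, passed the filter on dim probes, against 1 of 7 fibroblast, 2 of 5 leukocyte and 1 of 5 endothelial markers. First and second harvests lay on different beadchips except for V5, whose single array shared a beadchip with second harvests, so harvest and beadchip cannot be told apart.

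The starts of the genes that moved are shown first, because EFNB2, EFNA1, EPHA4 and EPHB6 carry the results that follow. Each window runs from 250 bases before to 50 bases after the annotated start (RefSeq, GRCh38.p14), is written 5′ to 3′ on the strand of the gene, and has GC boxes (GGGCGG, either strand) in capitals. All 10 genes have a window in the table, and EPHA4 and EPHB2 have 2.
EFNB2, chr13:106535613-106535912, minus strand: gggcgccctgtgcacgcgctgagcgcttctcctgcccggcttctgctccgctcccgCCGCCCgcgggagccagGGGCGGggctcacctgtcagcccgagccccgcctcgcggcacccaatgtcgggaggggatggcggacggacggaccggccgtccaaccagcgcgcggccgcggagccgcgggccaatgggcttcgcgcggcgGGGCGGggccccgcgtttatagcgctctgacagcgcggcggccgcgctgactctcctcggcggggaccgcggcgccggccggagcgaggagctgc
EFNA1, chr1:155127626-155127925, plus strand: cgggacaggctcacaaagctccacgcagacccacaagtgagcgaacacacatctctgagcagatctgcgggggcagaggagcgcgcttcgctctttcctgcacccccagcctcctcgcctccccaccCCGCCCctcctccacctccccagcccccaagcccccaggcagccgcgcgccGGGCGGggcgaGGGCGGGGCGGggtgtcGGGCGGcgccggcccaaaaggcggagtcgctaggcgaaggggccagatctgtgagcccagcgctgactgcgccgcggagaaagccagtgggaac
EPHA4, chr2:221574153-221574452, minus strand: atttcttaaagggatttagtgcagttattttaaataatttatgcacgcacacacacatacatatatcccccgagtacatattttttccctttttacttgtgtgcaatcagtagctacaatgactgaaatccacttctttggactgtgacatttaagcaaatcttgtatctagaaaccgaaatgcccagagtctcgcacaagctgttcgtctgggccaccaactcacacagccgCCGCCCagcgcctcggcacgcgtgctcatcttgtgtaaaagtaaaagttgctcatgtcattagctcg
EPHA4, second start, chr2:221572255-221572554, minus strand: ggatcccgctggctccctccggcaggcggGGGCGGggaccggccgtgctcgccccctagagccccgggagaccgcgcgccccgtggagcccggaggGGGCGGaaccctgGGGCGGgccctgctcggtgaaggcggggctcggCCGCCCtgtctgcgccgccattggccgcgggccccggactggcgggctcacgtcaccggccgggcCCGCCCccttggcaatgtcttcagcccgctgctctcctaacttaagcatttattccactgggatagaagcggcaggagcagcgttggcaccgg
EPHB6, chr7:142862506-142862805, plus strand: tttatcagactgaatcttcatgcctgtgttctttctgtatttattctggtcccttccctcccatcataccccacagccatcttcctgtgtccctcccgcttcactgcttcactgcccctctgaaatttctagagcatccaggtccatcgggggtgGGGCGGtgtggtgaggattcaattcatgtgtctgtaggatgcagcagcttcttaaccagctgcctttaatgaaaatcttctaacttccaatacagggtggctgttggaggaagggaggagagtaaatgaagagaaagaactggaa

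The EFNB2 window was the richest in G and C of the 5 shown, at 78.7%, against a median of 58.7% over all 35116 windows, with 49 CpG dinucleotides, 3 GC boxes and 1 TATA box (TATAAA, either strand). The EFNA1 window held 5 GC boxes at 71.7% G and C. The 2 EPHA4 windows differed, with 1 GC box at 43% G and C in the upstream one and 5 GC boxes at 74.3% in the other, and the EPHB6 window held 1 GC box and 3 CpG dinucleotides at 48%. Among all windows, 45% held a GC box and 11.5% a TATA box. Sites for TCF (CTTTG followed by A or T in each of the next 2 places, either strand), found in 13.8% of all windows, were in none of these 5 and in 1 window of the 10 genes, that of EFNA4. The AP-1 motif TGANTCA (7.71% of all windows) and the E-box CACGTG (7.26%) were in none of the windows of the 10 genes. These are matches of letters and say nothing of binding. On chromosome 1, EFNA4 and EFNA1 are neighbours on the same strand with EFNA3 between them.

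Among the 8 genes tested, 3 were higher in gelsolin-overexpressing lines (EFNA1, EPHA4 and EPHB6), 1 was lower (EFNB2) and 4 did not pass the threshold (EFNA4, EFNB1, EPHA2 and EPHB4). EFNB2 moved most, with gelsolin lines at 0.280 of the vector level, while the 3 rises were smaller than 1 on the log2 scale. The background is high: limma called 22.2% of the 10267 genes tested at an adjusted p under 0.05, 12.8% higher and 9.41% lower, so 4 calls among 8 genes are to be read against that share, and EPHA4 was tested at all only because of its level in the gelsolin lines. EPHB6 also needed gelsolin lines to pass the filter, since V4 alone of the vector lines was above the common median. The arrays of the groups did not overlap for 2 of the 8 genes, EPHA4 (all gelsolin arrays higher) and EFNB2 (all lower), as for 20.2% of all genes. The median log2 fold change of the 8 genes was 0.15, against 0.02 over all genes tested.

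**Figure D1:**
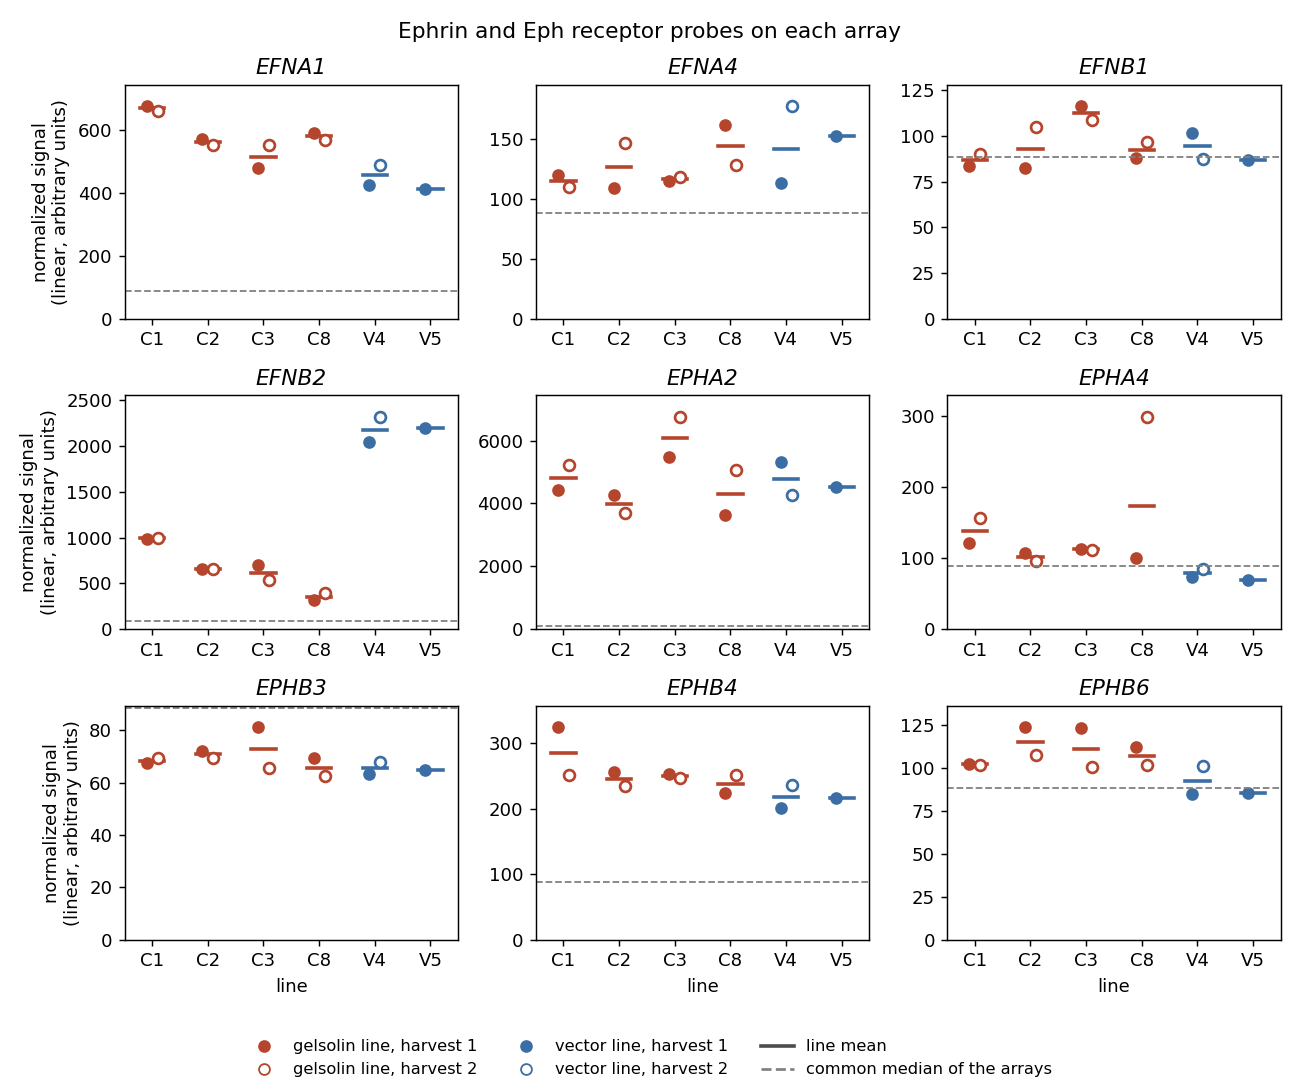
Normalized signal (linear scale, arbitrary units, axes from 0) of the 9 ephrin and Eph receptor genes with a probe on each array, by line, with gelsolin lines C1, C2, C3 and C8 left of vector lines V4 and V5. Filled circles are first harvests, open circles second harvests, bars line means and the dashed line the common median of 88.35. EFNB2 lies at 316.5 to 997 on gelsolin arrays, below all vector arrays, and EPHB3 stays under the dashed line on every array.

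EFNB2 encodes ephrin-B2, the B-class ligand best known as the partner of EPHB4 between arteries and veins. In the first and second harvest, C1 had 986 and 997, C2 had 659 and 655, C3 had 699.5 and 532, and C8 had 316.5 and 391, against 2044.5 and 2317 for V4 and 2195 for V5. All 8 gelsolin arrays were low, with no overlap, and C8 was lowest. The line means averaged 653 ± 263 in gelsolin lines and 2186 ± 12.99 in vector lines (SD, n = 4 and 2 lines), which is -1.84 ± 0.39 on the log2 scale (fold change and its standard error; 95% interval -2.80 to -0.87, adjusted p = 0.0234 from limma). Within the beadchips it was -1.73 and -1.89. Over the 23 alternative settings the log2 fold change was -2.07 to -1.57. Its shared direction is no separate check. Other filters, plain eBayes, the ratio table and the analysis of variance leave the fold change as it is. With arrays that do not overlap, leaving out a line cannot turn it. The adjusted p from limma was above the threshold without C2 (0.0789) or C3 (0.0859). It was also above it without V4 or V5 and on beadchip 1 alone, fits with 1 vector line or array. In bulk RNA, fewer cells that express a gene and less of its RNA per cell cannot be told apart.

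The gelsolin lines also differed from each other in EFNB2. Line means were 991 in C1, 657 in C2, 610.2 in C3 and 352 in C8, which put the lines -1.14, -1.73, -1.84 and -2.63 from the vector mean on the log2 scale. The differences between harvests of a line, at most 0.39 in size, were smaller than the step from C1 to C8. An F-test between the 4 lines in limma, with the harvest as a term, gave an adjusted p of 0.0361 for EFNB2, a threshold that 0.429% of genes passed. That call was lost without C1 (adjusted p = 0.206), where limma called 0 genes and 2 of the set had an unadjusted p under 0.05, and with plain eBayes (0.0519). No other tested gene of the set passed in this limma F-test. EPHA2 alone of these had an unadjusted p under 0.05 in it (adjusted p = 0.207 from limma).

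EFNA1 encodes ephrin-A1, an A-class ligand of EPHA2. C1 had 677 and 663, C2 had 573 and 552, C3 had 481 and 554, and C8 had 593 and 569.5, against 426 and 489 for V4 and 412 for V5. Gelsolin arrays were higher except that the first harvest of C3 fell just under the second of V4, so that the groups overlapped. Means were 582 ± 64.3 in gelsolin lines and 435 ± 31.2 in vector lines (SD, n = 4 and 2 lines), which is 0.42 ± 0.13 on the log2 scale (fold change and its standard error; adjusted p = 0.0399 from limma). Within the beadchips it was 0.44 (adjusted p = 0.372 from limma) and 0.38 (0.109). The call was lost without C1 (0.0787), C2 (0.0509), V4 (0.123) or V5 (0.314), without the second harvest of C8 (0.0552), and after quantile normalization with or without normexp (0.0613 and 0.0610), with log2 fold changes of 0.34 to 0.49.

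EFNA4, a second A-class ligand, did not pass the threshold. Its gelsolin arrays ran from 109 over a median of 119 to 162, against 114, 178 and 153 on vector arrays, and the groups overlapped. The log2 fold change was -0.23 (95% interval -0.48 to 0.01, adjusted p = 0.153 from limma), and its other probe gave 121 ± 6.97 in gelsolin lines and 135 ± 11.4 in vector lines, a log2 difference of -0.16. The difference changed sign between the beadchips, 0.14 on the first and -0.40 on the second, and without C8 the gene was called lower (adjusted p = 0.0471). EFNB1, a B-class ligand that pairs with EPHB2 and EPHB3 in the crypt, was close to the common median throughout, at 82.7 to 116 on gelsolin arrays and 86.7 to 102 on vector arrays, with a log2 fold change of 0.08 (95% interval -0.15 to 0.31, adjusted p = 0.624).

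EPHA4, the receptor that takes ligands of both classes, was dim. C1 had 121 and 157, C2 had 108 and 96.4, C3 had 112 and 112, and C8 had 100.2 and 299, against 73.6 and 85.0 for V4 and 69.4 for V5. Every gelsolin array was above every vector array, and the second harvest of C8 stood 1.58 on the log2 scale above the first. Means were 131 ± 31.7 in gelsolin lines and 74.3 ± 6.83 in vector lines (SD, n = 4 and 2 lines), which is 0.79 ± 0.20 on the log2 scale (fold change and its standard error; 95% interval 0.33 to 1.26, adjusted p = 0.0263 from limma). Since both vector lines were under the common median, the gene passed the filter through the 4 gelsolin lines alone. Without the second harvest of C8 the log2 fold change was 0.60 (adjusted p = 0.0117), and the call was lost without C1 (0.0758), V4 (0.0879) or V5 (0.182). Within the beadchips it was 0.58 and 0.97, and neither passed the threshold. A beadchip block gave 0.84 (adjusted p = 0.103 from limma) and an offset of 50 gave 0.54 (adjusted p = 0.0538). The call was lost in 11 of 22 alternatives. Among them were the line as a random block (adjusted p = 0.124 from limma) and a block for the replicate number (0.152).

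EPHA2, the brightest probe of the set and the main A-class receptor of epithelial cells, ran from 3638 over a median of 4746 to 6757 on gelsolin arrays, against 5327, 4268 and 4532 on vector arrays. The vector arrays lay inside the gelsolin range. Its log2 fold change was 0.03 (95% interval -0.31 to 0.36, adjusted p = 0.925 from limma), with C3 highest at a line mean of 6089 and C2 lowest at 3986.

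EPHB6, a B-class receptor without kinase activity, rose by little and close to background. C1 had 102 and 102, C2 had 123 and 107, C3 had 123 and 100.2, and C8 had 112 and 101, against 84.6 and 101 for V4 and 85.0 for V5. The second harvest of V4 reached the lowest gelsolin arrays, so the groups overlapped. Of the vector line means, V4 (92.5) was above the common median and V5 was not, so the gene needed gelsolin lines to pass the filter. Means were 109 ± 5.63 in gelsolin lines and 88.8 ± 5.27 in vector lines (SD, n = 4 and 2 lines), which is 0.29 ± 0.09 on the log2 scale (fold change and its standard error; adjusted p = 0.0337 from limma). It was 0.44 on the first beadchip and 0.15 on the second, where the adjusted p was 0.404, and the call was lost without C2 (0.0662), C3 (0.0604), V4 (0.0965) or V5 (0.305). It was also lost with the line as a random block (adjusted p = 0.0639 from limma), with a beadchip block (0.0962), with a block for the replicate number (0.0697) and with plain eBayes (0.0653).

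EPHB4, the receptor of ephrin-B2, did not pass the threshold. Its signals ran from 223 over a median of 251 to 324 on gelsolin arrays, against 202, 236 and 216 on vector arrays, with overlap (log2 fold change 0.23, 95% interval -0.02 to 0.48, adjusted p = 0.180 from limma). EPHB3 was under the common median on every array, at 62.4 to 81.1 on gelsolin arrays and 63.2 to 67.8 on vector arrays, and was not tested in the main analysis. With no filter its log2 fold change was 0.09 (adjusted p = 0.343 from limma), in a fit that called 14.3% of 18712 genes.

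**Figure D2:**
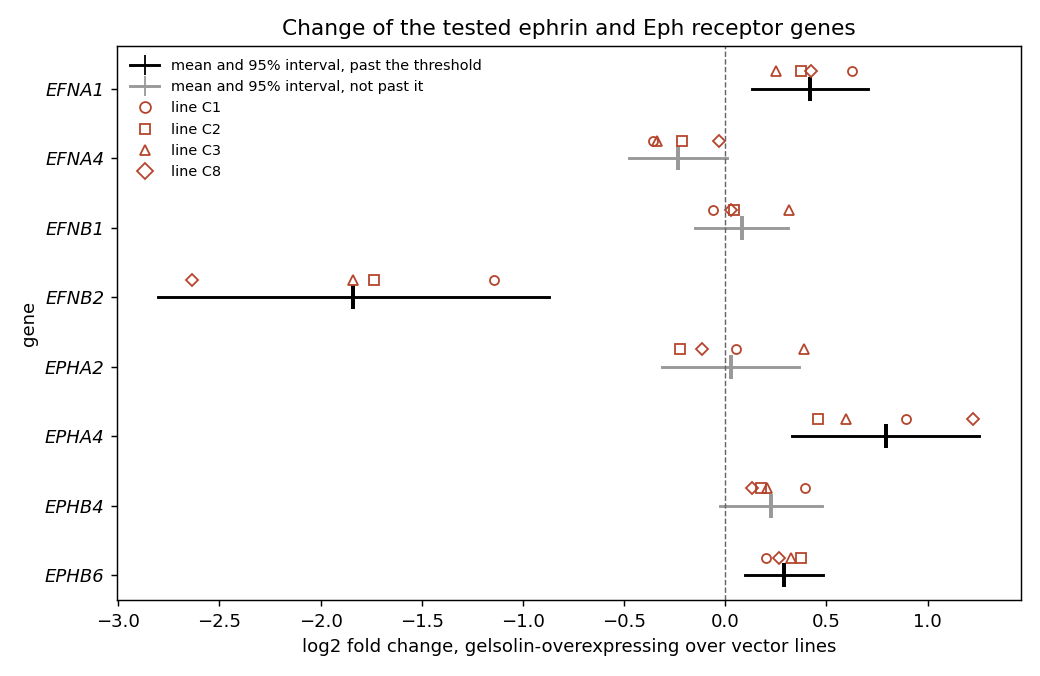
Log2 fold change of the 8 tested genes, gelsolin-overexpressing over vector lines. Bars are the mean with its 95% interval from limma, black where the adjusted p is under 0.05 and grey otherwise, and open symbols are each gelsolin line's mean minus the vector mean. All 4 gelsolin lines lie left of 0 for EFNB2 and right of 0 for EFNA1, EPHA4, EPHB4 and EPHB6.

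Set side by side, the A class had a median log2 fold change of 0.22 over 4 genes (range -0.23 to 0.79, 2 higher) and the B class 0.15 over 4 genes (range -1.84 to 0.29, 1 higher and 1 lower). By gelsolin line, C1, C2, C3 and C8 in turn, the A-class median was 0.34, 0.08, 0.32 and 0.20 and the B-class median 0.07, 0.11, 0.26 and 0.08. The 4 ligands had a median of -0.08 and the 4 receptors one of 0.26. No test was made between classes, whose members are not replicates. The range of the B class rests on EFNB2. The upper end of the A class is EPHA4, which passed the filter through its level in the gelsolin lines alone. The medians and counts of the A class and of the receptors include it, so they are not free of that selection. EPHB6, the gene called higher in the B class, also needed gelsolin lines to pass the filter. The same limit therefore holds for the B class.

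**Figure D3:**
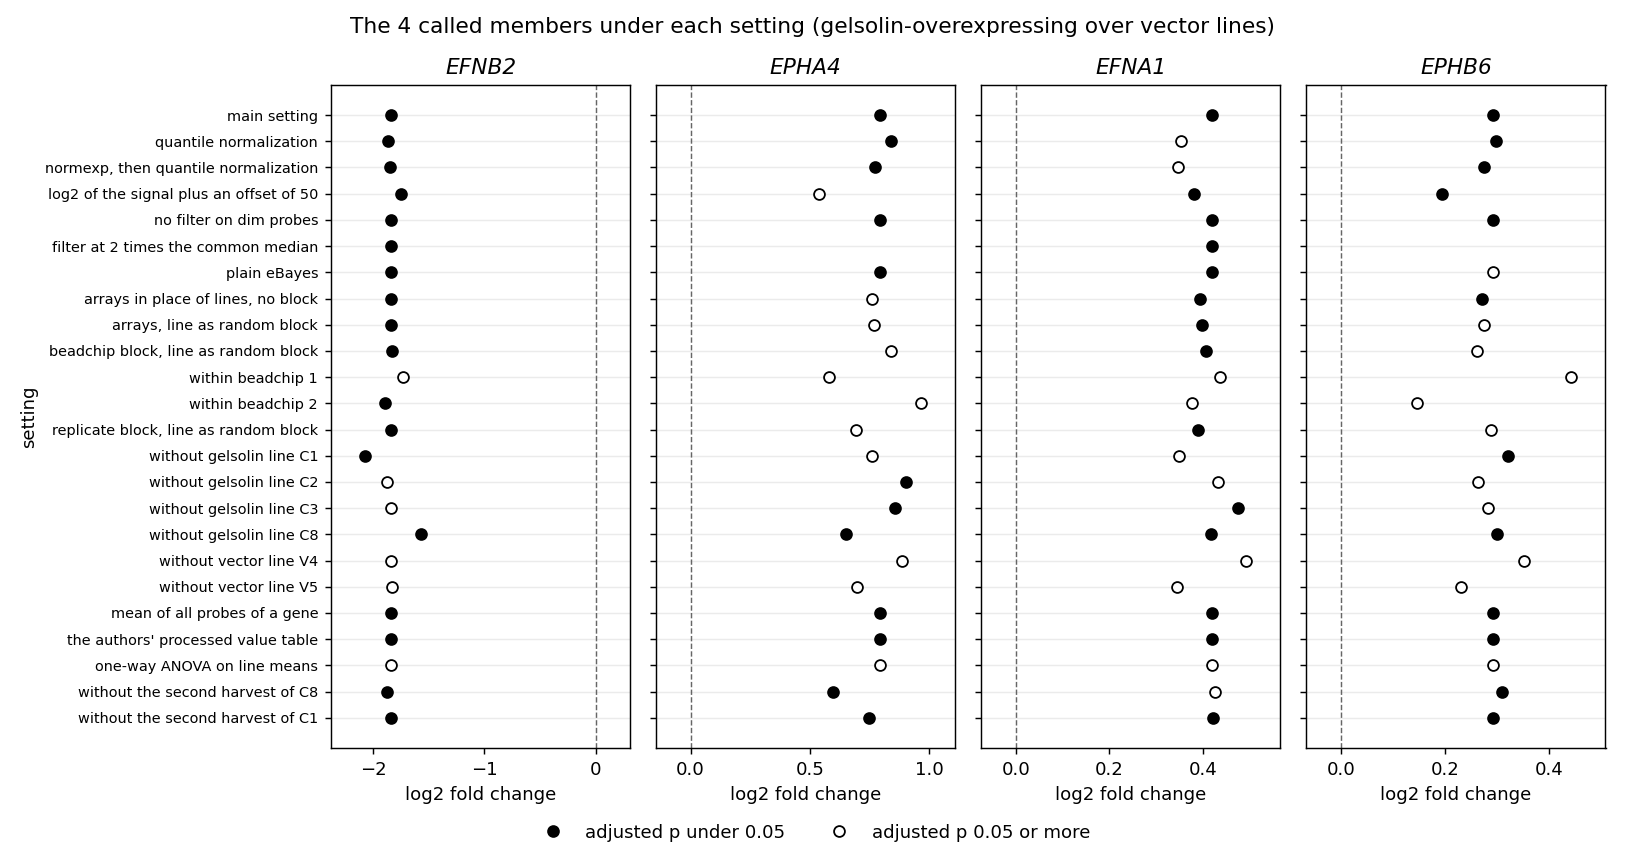
Log2 fold change (x axes, gelsolin-overexpressing over vector lines) of EFNB2, EPHA4, EFNA1 and EPHB6 under the main analysis and each alternative setting. Filled circles have an adjusted p under 0.05, open circles do not, and an empty place means that the gene did not pass that setting's filter. Every circle lies on the same side of 0 as the main value. That side could not change under other filters, plain eBayes, the ratio table, the analysis of variance or with a line left out.

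Whether the gelsolin effect differed between the beadchips was asked with an interaction of group and beadchip in limma. Of all genes tested, 0 passed and 633 had an unadjusted p under 0.05. In the set, the adjusted p from limma was 0.796 to 0.968, and EFNA4 alone had an unadjusted p under 0.05.

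Of the wider family of 22 genes, 20 have a probe and 9 were tested. The added one was EPHA1, an A-class receptor of epithelia, which had line means of 446 in C1, 533 in C2, 272 in C3 and 275 in C8, against 343 in V4 and 247 in V5. C1 and C2 were high and the other gelsolin lines lay between the vector lines. Its log2 fold change between the groups was 0.33 (95% interval -0.43 to 1.09, adjusted p = 0.510 from limma), while the 4 gelsolin lines differed from each other (adjusted p = 0.0361 in the F-test). That call was lost without C1, where the F-test called 0 genes. Besides EPHB3, the dim genes were EFNA2, EFNA3, EFNA5, EFNB3, EPHA3, EPHA5, EPHA7, EPHA8, EPHA10 and EPHB1. These 11 had array signals of 45.2 to 92.5, no line mean above the common median, and log2 differences of -0.19 to 0.09 with no filter. With no filter, 1 of them was called, EPHA10 (log2 fold change -0.19, adjusted p = 0.0445 from limma), at 59.5 ± 1.76 in gelsolin lines and 67.9 ± 1.63 in vector lines. That fit called 14.3% of 18712 genes, and both EPHA10 levels lay under the common median.

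Genes whose proteins act with Eph receptors and ephrins moved both ways. Of 44 tested, 8 were higher and 5 lower (29.5%, against 22.2% of all genes), with a median log2 fold change of 0.03. Those that rose included ADAM10, a protease that cleaves ephrin-A ligands, with 259 over a median of 347 to 394 on gelsolin arrays, against 205, 196 and 191 on vector arrays. The groups did not overlap (log2 fold change 0.73, adjusted p = 0.00195 from limma). PTPRF, the receptor phosphatase LAR, was at 143 ± 18.2 in gelsolin lines and 88.2 ± 1.47 in vector lines (0.69, adjusted p = 0.00159). PIK3R1, the regulatory subunit of phosphoinositide 3-kinase, was at 423 ± 87.6 in gelsolin lines and 219 ± 31.7 in vector lines by its brightest probe (0.93, adjusted p = 0.00543), and the mean of its 3 probes gave 0.31 (adjusted p = 0.0488). NGEF, the ephexin that binds EPHA4, was at 218 ± 18.4 in gelsolin lines and 154 ± 23.0 in vector lines (0.50, adjusted p = 0.0147). SH2D3C, an SH2 adaptor of Eph receptors, and DVL2, a dishevelled protein that acts with ephrin-B in Xenopus, passed too, with log2 fold changes of 0.39 and 0.51, but the mean of the 2 SH2D3C probes gave 0.19 and was not called (adjusted p = 0.103 from limma).

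Of the genes that fell, GRB10, an adaptor for receptor tyrosine kinases, was at 201 over a median of 226 to 310.5 on gelsolin arrays, against 452, 455 and 398 on vector arrays. The groups did not overlap (log2 fold change -0.83, adjusted p = 0.000602 from limma), and the mean of its 3 probes gave -0.36 (adjusted p = 0.0111). SIPA1L1, a GTPase-activating protein for Rap that acts under EPHA4 in rodent neurons, fell to 1068 ± 77.2 in gelsolin lines, against 1584 ± 17.4 in vector lines (-0.57, adjusted p = 0.00579). YES1, a kinase of the Src family, was at 1232 ± 141 in gelsolin lines and 1741 ± 134 in vector lines (-0.51, adjusted p = 0.0206). The remaining called genes of this list were RHOA and CLDN4 (higher) and ROCK2 and SAMD5 (lower). The list's calls were 3 higher and 2 lower without V4, where 7.90% of all genes were called, and 3 higher and 1 lower without V5, where 5.51% were. SIPA1L1, YES1, DVL2 and SH2D3C lost their calls without either vector line, NGEF without V4 (adjusted p = 0.202 from limma) and PIK3R1 without V5 (0.0972).

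**Figure D4:**
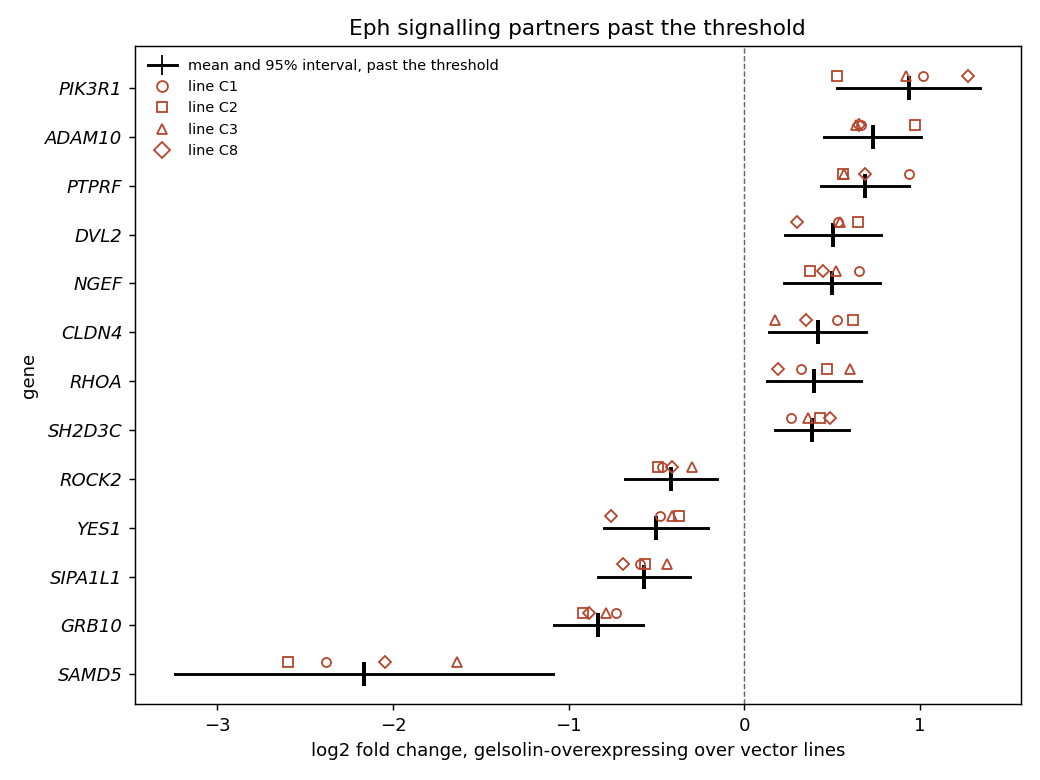
Log2 fold change of the 13 Eph signalling partners past the threshold, gelsolin-overexpressing over vector lines, ordered by size. Bars are the mean with its 95% interval from limma and open symbols each gelsolin line's mean minus the vector mean. By the brightest probe of each gene, the largest rise is PIK3R1 at 0.93 and the largest fall SAMD5 at -2.16.

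Other guidance genes were set beside the ephrins for comparison, against the 12.8% of all genes called higher and 9.41% called lower. Without V4 or without V5, calls over all genes fell too. Calls lost from the semaphorin and netrin lists in those fits are to be read against that fall. Of 13 semaphorins, plexins and neuropilins tested, 6 were higher and 2 lower, with 4 and 1 left without V4 and 2 and 1 without V5. NRP1, a co-receptor of class 3 semaphorins, was lower (log2 fold change -2.23, adjusted p = 0.00013 from limma, or -1.36 by the mean of its 2 probes). PLXNB1 (0.76), SEMA3C (0.60) and PLXNA3 (0.64) were higher, and PLXNA3 lost its call without V5 (adjusted p = 0.0910 from limma).

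Of 7 netrins, slits and their receptors, 3 were higher and 2 lower, but 0 of 6 were higher and 1 was lower without V4 or without V5, with 3 and 1 higher at an unadjusted p under 0.05 in these limma fits. UNC5A was higher by 0.84 on the log2 scale, a call lost without V4 (adjusted p = 0.0800 from limma) or V5 (0.111), and RGMA by 0.46, whose call was lost in 11 of 23 alternatives. ROBO3 was lower at -0.88, and UNC5B, at -0.59, was above the common median in the vector lines alone. Other receptor tyrosine kinases had 2 of 15 higher (13.3%) and 0 lower, with 1 lower at an unadjusted p under 0.05. RET (0.73, or 0.35 by the mean of its 2 probes) passed the filter through the gelsolin lines alone. EGFR (0.61) lost its call without V5 (adjusted p = 0.136 from limma) and with the mean of its 4 probes, which gave 0.16 (0.166).

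Beta-catenin and TCF targets, the class to which EPHB2 and EPHB3 belong, had 1 of 11 higher and 2 lower (27.3%, against 22.2% of all genes), with a median log2 fold change of 0.04. DKK1, a secreted Wnt inhibitor, was higher (1.64), and the Wnt inhibitor RNF43 (-1.56) and BAMBI (-1.06), a decoy receptor for TGF-beta, were lower (adjusted p = 9.68e-07, 2.37e-05 and 0.00184 from limma).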

How the data were processed

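Total RNA of 8 arrays of gelsolin-overexpressing and 3 arrays of vector HCT116 lines was hybridised to beadchips as biotin-labelled cRNA. The deposited intensity values are average bead signals of 20596 probes on a linear scale, summarised by the authors in BeadStudio and not normalized between arrays. The lowest signals are 34.2 to 41.9, no detection p comes with them, and the sources used here do not give how BeadStudio treated background. The authors also deposited a ratio table from GeneSpring, each array divided by its 50th percentile and each probe by a baseline; it differs from the median-scaled intensities by 1 constant per probe.

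Here each array was scaled to the common median, and log2 signals were averaged per line. A probe was kept when 2 or more of the 6 line means exceeded the common median. Of the probes, 18389 have 1 symbol, 0 several and 2207 none. The lines were compared by limma 3.58.1 in R 4.3.3 (lmFit, eBayes with trend and robust), with 2-sided p-values adjusted after Benjamini and Hochberg across the 10267 genes and a threshold of 0.05. Every adjusted p is from limma unless another test is named. The gelsolin lines were compared with each other on 8 arrays by limma's F-test. Lines are clones of 1 cell line. In the main comparison, p-values rest on the spread between line means, and the 4 and 2 lines limit the precision. In the F-test they rest on the spread between the harvests of a line. The scripts were tested on simulated data.

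The genes of the set and all gene lists were chosen with earlier results of these data known. Named are GSN, the set, its family, of each other list up to 4 called genes with the smallest adjusted p (6 for signalling partners), and called binders of the set's proteins; RHOA, CLDN4, ROCK2 and SAMD5 were added after their values were seen. Alternatives were quantile normalization, normexp, an offset of 50, other filters, plain eBayes, arrays in place of lines, blocks for line, beadchip and harvest, each beadchip alone, each line left out, all probes of a gene, the ratio table and analysis of variance. The study's methods name an analysis of variance with a fold-change cut and give no adjustment; here it was run on line means, with Benjamini-Hochberg adjustment and no fold cut. Leaving out the second harvest of C8 or of C1 was chosen after seeing the data.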

Additional observations from a re-analysis of the deposited data

Results flagged for a closer look

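The gelsolin lines differed from each other in EFNB2 (adjusted p = 0.0361 in limma's F-test between the 4 lines), with line means of 991 in C1, 657 in C2, 610.2 in C3 and 352 in C8. It is listed because the level differed between the gelsolin lines by a direct test, which does not use the vector lines. The call was lost without C1 and with plain eBayes. GSN in these lines was at 226 in C1, 197 in C2, 209.8 in C3 and 265 in C8, and its part in the difference was not tested.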

How the results depend on the processing

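The 4 called genes EFNB2, EPHA4, EFNA1 and EPHB6 kept their sign in every alternative that tested them. For these genes, other filters, plain eBayes, the ratio table and the analysis of variance cannot change the fold change. Leaving out a line cannot turn the sign either, since every gelsolin line mean lay on the same side of both vector line means. The shared sign in those settings is therefore no separate check. The counts of calls moved. Against 3 higher in the main analysis, 1 was higher with the filter at 2 times the common median (4 of the genes left to test), with arrays and the line as a random block, and also when a beadchip block was added. It was 0 within beadchip 1, within beadchip 2 and by analysis of variance on line means, which had 3 higher and 1 lower at an unadjusted p under 0.05, as did 30.1% of all genes in either direction. Leaving out 1 line gave 0 to 3 higher and 0 to 2 lower, against 1 lower in the main analysis. The count lower was 0 within beadchip 1 and by the analysis of variance. Between the gelsolin lines, 1 gene was called in the main analysis, 0 with plain eBayes (2 genes at an unadjusted p under 0.05), and 0 to 1 with 1 line left out. With the replicate number as a block, the count was 1 higher and 1 lower. Second-minus-first differences correlated with those of V4 at -0.02 in C1, 0.21 in C2, 0.16 in C3 and 0.002 in C8. Correlations among the gelsolin lines were not examined, so whether the replicate numbers pair the lines was not settled. Over all genes, calls were 2280 in the main analysis, 204 within beadchip 1, 1497 within beadchip 2, 800 without V4, 557 without V5 and 483 by the analysis of variance. EPHA4, EPHB6, EFNB1 and EPHB3 lie near background, which limits what their signals can show, and the 2 vector lines limit every comparison.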
